A study of Mus musculus with 12 samples.

Results

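The genes described here are 8 genes known from monocytes and the macrophages that arise from them: *Chil3*, *F13a1*, *Ly6c2*, *Plac8*, *Vcan*, *Fn1*, *Thbs1* and *Ms4a7*. They were taken by name from a deposited table of 16971 genes, in which each of the 8 was listed once. The members were selected on earlier results from the same group means, so every level below is a description and carries no test. All 8 also passed the filter on low values, which kept 12891 genes with a sum over libraries of 10 normalized counts or more.

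From the nonparenchymal fraction of adult mouse liver, GFP(+) cells were isolated by FACS for RNA-seq. Every mouse was on the C57BL/6 background and carried *Prom1CreERT2-nLacZ/+;Rosa26Lsl-GFP/+*, and every mouse, controls included, received tamoxifen 7 days before surgery. In this model *Prom1* drives the recombinase, and a cell that expresses *Prom1* when tamoxifen is given, and each of its descendants, keeps GFP for life. The study compared such cells before and after bile duct ligation (BDL, a surgical block of bile flow that leads to cholestasis and biliary fibrosis), with the GFP gate set on wild-type livers. Day 0 was labelled as sham, while the paper describes it as before BDL, and the other groups were BDL day 3 and BDL day 14. The labels list 3, 3 and 6 libraries, each from 100000 sorted cells. The values of the table rest on 3, 3 and 4 libraries, since 2 libraries of BDL day 14 with too few reads were left out by the authors and are not named.

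Classical monocytes of the mouse leave the bone marrow, carry the surface protein Ly6C and enter injured tissue through the chemokine receptor CCR2. In the liver they become macrophages that can settle beside the resident Kupffer cells, and on the way they lose Ly6C and change the set of proteins they secrete. The 8 genes fall into such roles. *Ly6c2* and *Ms4a7* encode proteins of the cell membrane, *Plac8* an intracellular protein, *Chil3* a secreted lectin, *F13a1* an enzyme that crosslinks proteins, and *Vcan*, *Fn1* and *Thbs1* proteins of the extracellular matrix.

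The members' promoters are shown for 4 genes because their group means went in opposite directions: *Chil3* and *Ms4a7* had the highest mean at BDL day 14, and *Ly6c2* and *Plac8* the lowest. RefSeq windows on the build GRCm38.p6 were found for 6 of the 8 genes, and not for *Fn1* and *Thbs1*. Each printed stretch runs 5′ to 3′ along the gene from 250 bases before the start of transcription to 10 bases after it, and all 4 genes lie on the minus strand. The stretches are chr3:106167555-106167814 for *Chil3*, chr19:11336137-11336396 for *Ms4a7*, chr15:75111962-75112221 for *Ly6c2* and chr5:100572196-100572455 for *Plac8*. Capitals mark any match to GGAAGT or TATAAA, read on both strands. GGAAGT is a core bound by ETS factors such as PU.1, and TATAAA is the sequence of the TATA box.
Chil3: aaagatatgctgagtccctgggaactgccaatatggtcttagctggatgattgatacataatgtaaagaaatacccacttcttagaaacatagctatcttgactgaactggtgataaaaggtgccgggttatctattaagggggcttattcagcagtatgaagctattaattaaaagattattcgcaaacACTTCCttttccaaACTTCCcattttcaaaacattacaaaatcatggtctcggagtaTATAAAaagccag
Ms4a7: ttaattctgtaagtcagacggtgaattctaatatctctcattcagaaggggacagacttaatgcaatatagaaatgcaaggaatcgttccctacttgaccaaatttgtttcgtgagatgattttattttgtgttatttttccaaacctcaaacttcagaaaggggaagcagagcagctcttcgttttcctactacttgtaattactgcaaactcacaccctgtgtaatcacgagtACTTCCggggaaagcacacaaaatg
Ly6c2: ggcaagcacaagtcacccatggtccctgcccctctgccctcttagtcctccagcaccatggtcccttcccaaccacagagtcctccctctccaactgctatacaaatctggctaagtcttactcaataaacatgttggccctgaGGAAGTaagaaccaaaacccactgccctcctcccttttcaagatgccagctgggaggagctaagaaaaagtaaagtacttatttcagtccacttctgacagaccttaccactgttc
Plac8: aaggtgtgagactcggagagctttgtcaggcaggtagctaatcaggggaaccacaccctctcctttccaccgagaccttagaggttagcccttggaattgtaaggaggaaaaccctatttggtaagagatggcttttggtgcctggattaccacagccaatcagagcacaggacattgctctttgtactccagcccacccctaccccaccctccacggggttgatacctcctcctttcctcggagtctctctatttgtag

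Over the full windows of 250 bases before to 50 bases after the start, GGAAGT was present in *Chil3* at positions -60 and -46, in *Ms4a7* at -15 and in *Ly6c2* at -106 and 29, the last of these beyond the printed stretch. TATAAA was found only in *Chil3* among the 6, at -3. There it spans the annotated start, so a TATA box serving that start is not shown by it. TTGCNNAA, bound by C/EBP factors, and TGANTCA, bound by AP-1, had no match in any of the 6 windows, and *F13a1*, *Plac8* and *Vcan* held none of the 4 motifs. No matches overlapped. Of 27025 RefSeq promoters of the same length, GGAAGT was present in 24.1%, TATAAA in 14.2%, TTGCNNAA in 10.8% and TGANTCA in 7.93%. Among the windows shown, GGAAGT occurred both in genes that were higher and in a gene that was lower at BDL day 14.

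The table gives 1 mean of normalized counts per group, and values per library were not analysed here. A geometric and an arithmetic mean taken across all 10 libraries are listed too, with the value of the highest one. The gap between the group means and the geometric mean widens as the libraries of a group differ more. From this gap each gene was given a within-group spread, an SD on the log2 scale taken as equal in the 3 groups, and from it an estimated standard error (SE) of each log2 ratio. The same summary values bound the level that any single library of a group can have. Where the bounds of 2 groups do not meet, the groups cannot overlap, whatever the library values were. The within-group spread of the 8 genes had a median of 0.62 and ran from 0.42 for *Plac8* to 1.70 for *Ly6c2*, beside a median of 0.58 over the genes kept.

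*Chil3*, which encodes the secreted chitinase-like lectin Ym1 (chr3:106147554-106167565), had the widest change of the 8. The authors' mean, in normalized counts, was 14.7 in the day 0 group, 90.4 in that of BDL day 3 and 858 in that of BDL day 14. Any single library had to lie between 4.94 and 27.7 at day 0, between 30.4 and 170 at BDL day 3 and between 222 and 1450 at BDL day 14, so no 2 of the groups can overlap. Against day 0 this was a log2 ratio of 2.62 ± 0.53 (estimated SE) for BDL day 3, a 6.15-fold higher level, and of 5.87 ± 0.50 for BDL day 14, a 58.4-fold higher level. BDL day 14 lay a further 3.25 ± 0.50 above BDL day 3. The highest library, of BDL day 14, held 42.2% of that group's sum at 1450 normalized counts. Without it the other libraries averaged 661, and the log2 ratio to day 0 was 5.49. *Chil1*, the other listed gene of the family, had means of 11.4, 4.81 and 2.51.

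*F13a1* encodes the catalytic chain of coagulation factor XIII, a transglutaminase that crosslinks fibrin and matrix proteins (chr13:36867178-37050245). Its means in the same order were 10.0, 23.5 and 334 normalized counts. The bounds of a library were 3.20 to 19.2, 7.51 to 44.9 and 94.9 to 446. BDL day 14 therefore stood apart from both earlier groups, and day 0 and BDL day 3 were neighbors whose bounds met. BDL day 3 was higher than day 0 by 1.23 ± 0.48 on the log2 scale, and BDL day 14 by 5.06 ± 0.45, which is 33.4-fold. The highest library held 33.4% of the BDL day 14 sum, and without it the log2 ratio was 4.89. *Chil3* and *F13a1* were the members higher by over 1.5-fold at BDL day 3 as the table is scaled, and with median-ratio scaling *Ms4a7* (0.60) passed as well.

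Transcripts of proteins that work with factor XIII were at lower levels after BDL. All 5 of the partners listed were lower by over 1.5-fold at both BDL day 3 and BDL day 14, times at which 29.2% and 28.8% of all genes kept were lower. Means were 99.2, 26.0 and 23.9 for *Fgb* and 106, 20.1 and 14.4 for *Fgg*, which encode chains of fibrinogen. The highest library held 70.2% of the day 0 sum for *Fgb* and 63.2% for *Fgg*. Without it the other libraries of day 0 averaged 44.3 and 58.5. For none of the 5 was an overlap with day 0 impossible at either time. *F13b*, the carrier chain of factor XIII, had means of 5.89, 0.439 and 0.507. These are products of hepatocytes, and the summed level of the 12 hepatocyte markers was 3668, 1074 and 508 in the same order. *Fga*, *Fgb* and *Fgg* belong to both lists, so the lists are not independent, and the part of hepatocytes was not tested. Of the 4 transglutaminase genes kept, *Tgm2* (284, 549 and 177) and *Tgm1* (13.7, 33.7 and 6.85) were higher by over 1.5-fold at BDL day 3 and lower by over 1.5-fold at BDL day 14, and *F13a1* was the member of the family that was higher at BDL day 14.

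*Ms4a7* encodes a tetraspanning membrane protein found in macrophages (chr19:11321039-11336147). Means of 21.6, 32.3 and 135 normalized counts were listed for the 3 groups. A library had to lie between 9.87 and 36.1 at day 0, between 14.8 and 54.1 at BDL day 3 and between 46.4 and 238 at BDL day 14. BDL day 14 could not overlap day 0, its bounds met those of BDL day 3 in a narrow band, and day 0 and BDL day 3 could not be separated. Relative to day 0, BDL day 3 was higher by 0.58 ± 0.48 on the log2 scale, a fold of 1.495 that lies just under 1.5, and BDL day 14 by 2.64 ± 0.45, or 6.25-fold. Without the highest library, which held 44.1% of the BDL day 14 sum, the latter was 2.22.

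Other members of the *Ms4a* family are expressed on different leukocytes, and 10 of the family were kept. At BDL day 14, 4 were higher than day 0 by over 1.5-fold: *Ms4a6c* (100, 119 and 248), *Ms4a6d* (64.9, 137 and 173), *Ms4a7* and *Ms4a4a* (2.39, 6.49 and 64.9). The 4 lower ones included *Ms4a8a* (41.8, 96.1 and 21.4), *Ms4a1*, which encodes the B cell protein CD20 (27.5, 3.42 and 1.25), and *Ms4a4b*, known from T cells (24.5, 4.71 and 0.956). The family thus held genes of both directions. Of all genes kept, 21.2% were higher and 28.8% lower at BDL day 14.

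*Ly6c2* encodes the Ly6C antigen by which classical monocytes are recognized (chr15:75108158-75111971). Its means were 21.9, 8.19 and 6.69 normalized counts, so that day 0 was the highest group. The highest library had 48.9 normalized counts, a value that only day 0 can hold, and it made up 74.4% of the day 0 sum. The other libraries of day 0 averaged 8.40, close to the means after BDL. The bounds of a library were 0.099 to 48.9, 0.085 to 23.1 and 0.066 to 23.0. The highest library of day 0 thus lay above every library after BDL, and all other libraries of the 3 groups may overlap. With all libraries, BDL day 3 and BDL day 14 had log2 ratios to day 0 of -1.42 ± 1.39 and -1.71 ± 1.30. Without the highest library these ratios were -0.04 and -0.33, and *Ly6c2* no longer passed 1.5-fold in either comparison. No neighbors in its order of levels differed beyond their spread.

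Reads of *Ly6c2* are hard to tell from those of its neighbor *Ly6c1*, which is expressed by endothelial cells. Over the 393 coding bases the closest pair of their GENCODE M21 transcripts differed at 9, an identity of 97.7%, and 162 of the 344 stretches of 50 bases in *Ly6c2* (47.1%) were also in *Ly6c1*. The stretch that holds 6 of the differences, coding bases 6 to 65, is shown with the differing bases in capitals.
Ly6c2: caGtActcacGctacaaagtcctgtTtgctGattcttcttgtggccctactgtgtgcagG
Ly6c1: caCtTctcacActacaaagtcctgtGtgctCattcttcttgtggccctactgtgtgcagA
*Ly6c1* had means of 7.43, 1.27 and 6.78 normalized counts, and the division of reads between both genes is uncertain. In the *Ly6* family 5 genes were kept. Lower than day 0 by over 1.5-fold were *Ly6a*, *Ly6c1*, *Ly6c2* and *Ly6d* at BDL day 3, and *Ly6a*, *Ly6c2*, *Ly6d* and *Ly6e* at BDL day 14, with *Ly6c2* called through 1 library. Over all genes kept, the lower shares were 29.2% at BDL day 3 and 28.8% at BDL day 14. *Ly6a*, encoding Sca-1, had means of 226, 55.2 and 29.7, and *Ly6e* of 807, 1210 and 469. A like limit holds for *Chil3*, whose coding sequence was 94.4% identical to *Chil4* and shared 20.7% of its stretches of 50 bases with it. *Chil4* was not among the genes listed, so no level can be given for it.

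*Plac8* encodes a small cysteine-rich intracellular protein present in monocytes and several other leukocytes (chr5:100553725-100572246). It had means of 228, 218 and 46.9 normalized counts. The highest library, at 314, belonged to day 0 or to BDL day 3, and the bounds were 96.3 to 314 in the former, 93.3 to 314 in the latter and 22.2 to 79.8 at BDL day 14. BDL day 14 thus lay below both other groups with no overlap possible, and day 0 and BDL day 3 overlapped nearly fully. Its log2 ratio to day 0 came to -0.06 ± 0.34 for BDL day 3 and to -2.28 ± 0.32 for BDL day 14, a 4.86-fold lower level. Without the highest library, taken from either group, the ratio at BDL day 14 was -1.98 or -2.28 and that at BDL day 3 was 0.24 or -0.42.

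The matrix genes *Vcan*, *Fn1* and *Thbs1* were all highest at BDL day 14, at very different levels. *Vcan* encodes the proteoglycan versican, which binds hyaluronan (chr13:89655312-89742510), and its means were 1.09, 0.993 and 5.01 normalized counts. The bounds of a library were 0.378 to 2.03, 0.344 to 1.84 and 1.61 to 6.12. BDL day 14 could overlap the earlier groups only at its lower end. Relative to day 0, BDL day 3 stood at a log2 ratio of -0.13 ± 0.44, or 0.97 with quantile normalization, and BDL day 14 at 2.20 ± 0.41, and the latter was 2.09 without the highest library and 1.52 with a pseudocount of 1, which no longer passes 4-fold. The other genes of the hyaluronan-binding proteoglycan family were not kept, and of 5 partners of versican that were kept none was higher by over 1.5-fold at BDL day 14. Of all genes kept, 21.2% were higher by that rule. *Cd44*, a receptor for hyaluronan, had means of 195, 327 and 207.

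*Fn1* encodes fibronectin, which hepatocytes, fibroblasts and macrophages make (chr1:71585520-71653201). Its means were 137, 62.3 and 356 normalized counts, so that BDL day 3 was the lowest group and BDL day 14 the highest. The bounds of a library, 19.8 to 315, 8.99 to 143 and 37.2 to 650, met in all pairs of groups. The log2 ratio was -1.14 ± 0.78 for BDL day 3 against day 0, 1.38 ± 0.73 for BDL day 14 against day 0 and 2.51 ± 0.73 for BDL day 14 against BDL day 3. The highest library held 45.6% of the BDL day 14 sum, and without it the ratios of BDL day 14 were 0.91 to day 0 and 2.05 to BDL day 3. The 13 mesenchymal markers were all lower than day 0 by over 1.5-fold at both times, with summed levels of 1584, 34.3 and 151, and the part of such cells or of hepatocytes in the *Fn1* level was not tested. Of 8 fibronectin receptor genes, 3 were higher by over 1.5-fold at BDL day 14 and none lower, beside 21.2% and 28.8% of all genes. They were *Itga4* (29.0, 27.9 and 58.5), *Itga5* (20.8, 31.9 and 31.9) and *Itgb3* (8.71, 1.74 and 20.1), which encode integrin chains.

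*Thbs1* encodes thrombospondin 1, a matrix glycoprotein that can activate latent TGF-beta (chr2:118111876-118127134). Its means were 10.7, 14.4 and 89.3 normalized counts, within bounds for a library of 1.49 to 24.8, 2.00 to 33.3 and 9.56 to 151. The groups may overlap at the ends of these bounds, and day 0 and BDL day 3 could not be ordered. Relative to day 0, the log2 ratio of BDL day 3 was 0.43 ± 0.76 and that of BDL day 14 was 3.06 ± 0.71, an 8.35-fold higher level that came to 2.68 on the log2 scale without the highest library. The relatives *Thbs2* (3.58, 0.227 and 1.88, of which 0.227 is at the floor, a mean of up to 4 times the lowest of its group) and *Thbs3* (2.84, 0.368 and 0.640) were lower than day 0 by over 1.5-fold at both times. Of 6 receptors of thrombospondin 1, *Cd36* (70.8, 208 and 319) and *Itgb3* were higher by over 1.5-fold at BDL day 14. That was so for 21.2% of all genes kept. Platelets also hold thrombospondin 1 and factor XIII. Among 3 platelet and megakaryocyte genes kept of 6 listed, *Pf4* had means of 37.2, 82.7 and 221 and *Itga2b* of 4.26, 1.46 and 11.4, while *Ppbp* had 2.47, 1.53 and 1.51, and *Gp9*, *Gp1bb* and *Treml1* stayed at means of 1.27 or less. Their part in the 2 genes was not tested.

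**Figure D1:**
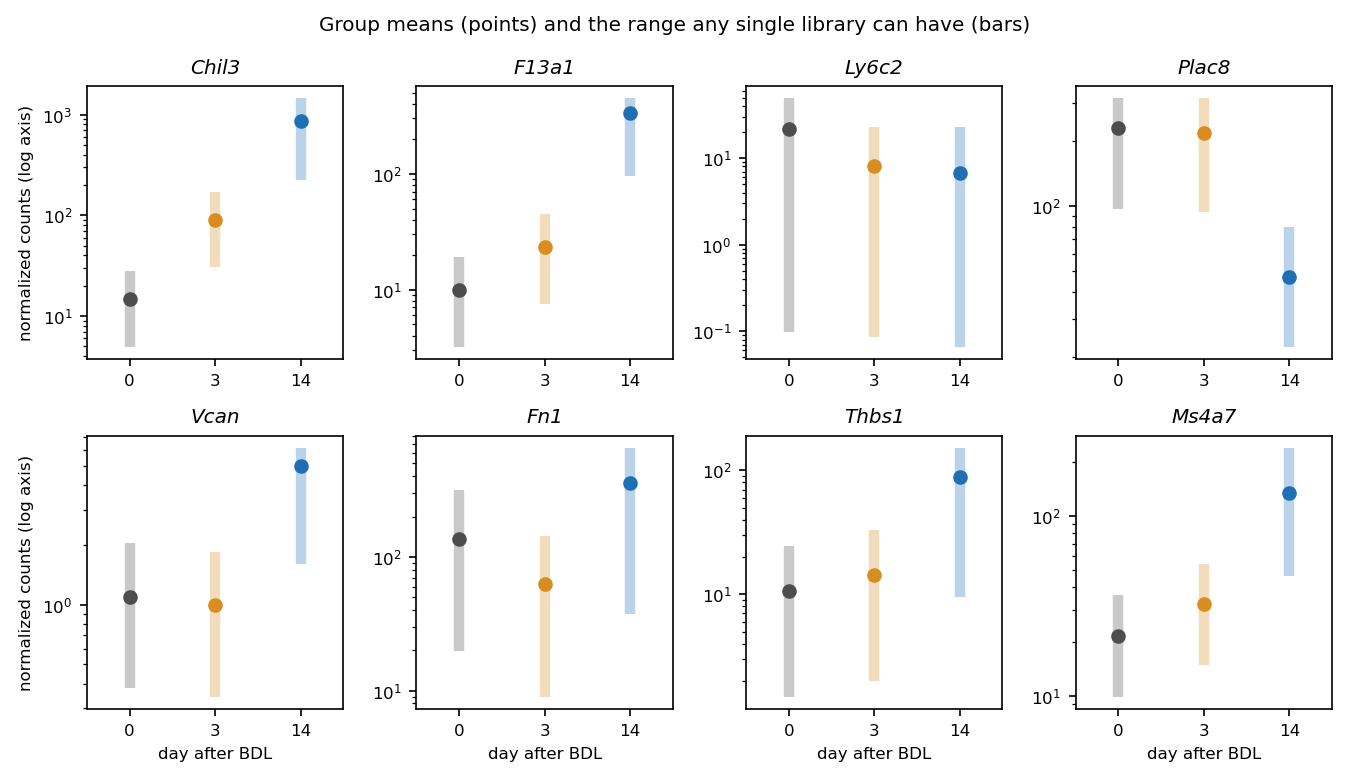
Normalized counts (log axis, different for each gene) by day after BDL for the 8 genes; points are the authors' group means and bars span the lowest to the highest level that a single library of the group can have. *Chil3* is the gene whose 3 bars do not meet, and *Plac8* is the one with its BDL day 14 bar wholly below both others. The bars of *Ly6c2* share most of their length, with that of day 0 reaching higher.

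At BDL day 3, the 8 genes went in both directions. Past 1.5-fold, 2 were higher than day 0 (*Chil3* and *F13a1*) and 2 were lower (*Ly6c2* and *Fn1*), where 19.2% of all genes kept were higher and 29.2% lower by the same rule. The median log2 ratio of the 8 was 0.18, and that of all genes kept was -0.02. When levels were set relative to the median of 11 general macrophage genes, which was itself 0.65 higher at BDL day 3 on the log2 scale, the members' median was -0.47. This scaling lowers the ratio of every gene by the same 0.65, so the -0.47 cannot be set against the -0.02 of all genes kept. Groups that cannot overlap were left for 1 gene, *Chil3*, beside 2.01% of all genes kept, and no member was lower in this way, beside 2.85%. Past 4-fold, *Chil3* was higher and no member was lower, where the shares over all genes were 0.877% and 10.2%.

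At BDL day 14, 6 of the 8 were higher than day 0 by over 1.5-fold, and *Ly6c2* and *Plac8* were lower, beside 21.2% and 28.8% of all genes kept. Past 4-fold, 5 were higher, beside 2.02% of all genes, and 1 was lower, beside 9.25%. The groups could not overlap for 3 higher genes (*Chil3*, *F13a1* and *Ms4a7*) and 1 lower gene (*Plac8*), where the shares over all genes were 1.61% and 2.85%. The median of the 8 was 2.42, and that of all genes kept was -0.04. The genes had been chosen with these ratios known, so nothing is read from the counts beyond the description. Both comparisons share the day 0 libraries.

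The ratio of BDL day 14 to BDL day 3 does not use the day 0 means, although its SE and the bounds rest on the geometric mean over all libraries, those of day 0 included. The later group was higher by over 4-fold for the same 6 genes, a call that 5.9% of all genes kept met, and lower for *Plac8* alone, beside 3.23%. Past 1.5-fold the counts were again 6 and 1, beside 21.2% and 19.7% of all genes. The log2 ratios of the 6 ran from 2.06 for *Ms4a7* to 3.83 for *F13a1*, *Ly6c2* stood at -0.29 ± 1.30, and *Plac8* at -2.22 ± 0.32. Without the highest library of each gene the 6 ratios ran from 1.64 to 3.66. *Chil3* and *F13a1* were higher and *Plac8* lower with no overlap possible, beside 0.807% and 1.16% of all genes.

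**Figure D2:**
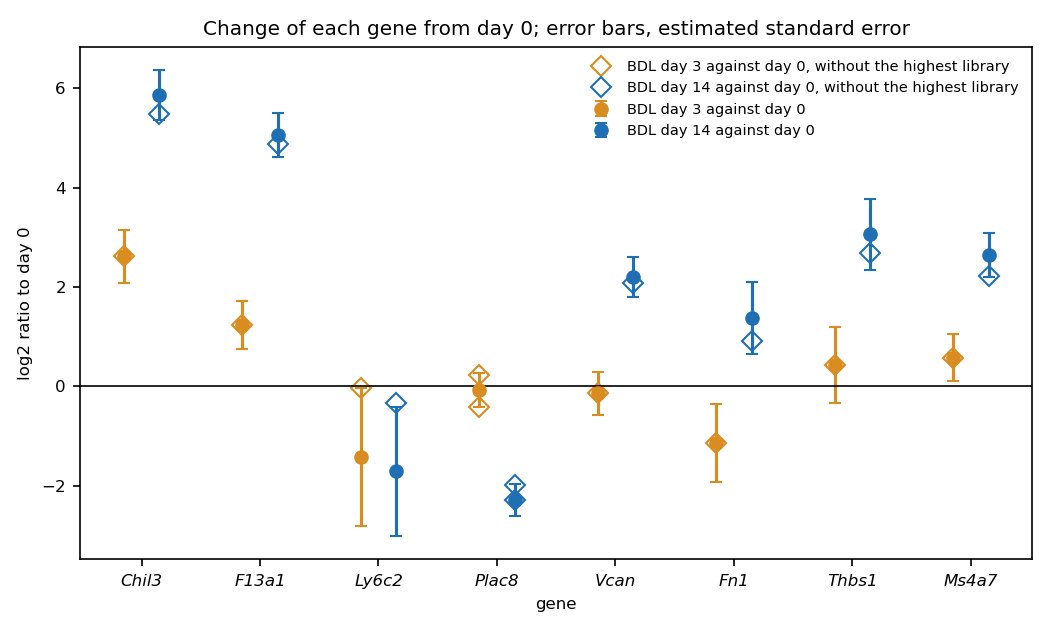
Log2 ratio of group means to day 0 for the 8 genes at BDL day 3 (orange) and BDL day 14 (blue); filled points are all libraries with the estimated SE as bars, and open diamonds leave out the highest library of the gene, once for each group it can belong to. The BDL day 14 points of 6 genes lie between 1.38 and 5.87, and those of *Ly6c2* and *Plac8* lie below 0; the diamonds of *Ly6c2* are at -0.04 and -0.33.

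Levels of different genes were compared per kilobase of exon. At day 0, *Plac8* was the highest of the 8 at 162 normalized counts per kb, followed by *Ly6c2* at 25.2, *Fn1* at 16.2, *Ms4a7* at 12.5 and *Chil3* at 9.55. *F13a1* (2.5), *Thbs1* (1.83) and *Vcan* (0.0785) were lowest. This order was changed at BDL day 14, when *Chil3* led at 558 per kb, above 99% of all genes kept with a length, followed by *F13a1* at 83.5 and *Ms4a7* at 77.9. *Fn1* then stood at 42.0, *Plac8* at 33.4, *Thbs1* at 15.3 and *Ly6c2* at 7.71. *Vcan* was the lowest of the 8 in all 3 groups, and at 0.361 per kb it reached only the level of the lowest 8.92% of genes at BDL day 14. Summed over the 8 genes without regard to length, the level was 445, 450 and 1831 normalized counts.

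Other genes known from classical monocytes were read for the same course. Of 15 kept, 6 were higher and 3 lower than day 0 by over 1.5-fold at BDL day 3, and 10 were higher and 2 lower at BDL day 14, with medians of 0.25 and 1.77. The higher ones at BDL day 14 included *Lyz2*, encoding lysozyme (2280, 4560 and 11200), *Ccl9*, a chemokine (48.5, 330.0 and 381), *Ms4a6c* and *Itgam*, encoding CD11b (44.4, 99.5 and 220.0). Lower ones were *Hp*, encoding haptoglobin (540.0, 157 and 113), and *Ms4a8a*. The summed level of hepatocyte markers was likewise highest at day 0, and the part of hepatocytes in the *Hp* level was not tested. *Ccr2*, the chemokine receptor of classical monocytes, was chosen after its values were seen, and its means were 15.3, 12.2 and 161. Its highest library held 66.9% of the BDL day 14 sum at 431 normalized counts, and the others averaged 71.0. *Hp*, like *Ly6c2*, was highest at day 0 and had 77.2% of its day 0 sum in 1 library; whether this was the same library for both genes is unknown.

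Patrolling monocytes, the Ly6C-low type that crawls along vessels, were represented by 9 genes. At BDL day 3, 2 were higher and 3 lower by over 1.5-fold, beside 19.2% and 29.2% of all genes kept. By BDL day 14, 2 were higher and 6 lower, beside 21.2% and 28.8%. Medians were 0.20 and -1.12. Both counts of BDL day 3 and the higher count of BDL day 14 were near these shares. *Treml4* (174, 557 and 68.1) and *Cd300e* (48.5, 186 and 13.6) were highest at BDL day 3, where both stood apart from day 0. *Cx3cr1*, the fractalkine receptor, had means of 11.7, 9.06 and 285, and *Ace* of 6.24, 2.83 and 25. *Adgre4* (142, 165 and 27.3) and *Itgal* (246, 339 and 131) were lower at BDL day 14, as *Plac8* was.

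At BDL day 14, Kupffer cell genes went the other way from most of the 8. Of 10 markers, 8 were higher by over 1.5-fold at BDL day 3, beside 19.2% of all genes kept. All 10 were lower at BDL day 14, beside 28.8%, and the medians were 0.75 and -2.64. *Clec4f*, a lectin made by Kupffer cells, had means of 4610, 6890 and 185, and *Cd5l* had 2620, 7440 and 691. General macrophage genes changed less: of 11, 7 were higher at BDL day 3, and 1 was higher (*Mpeg1*, 752, 1940 and 2420) and 1 lower (*Aif1*, 479, 411 and 219) at BDL day 14, with medians of 0.65 and 0.08. *Csf1r*, the receptor on which monocytes and macrophages depend, had means of 1360, 2140 and 1230. In sorted bulk samples such as these, fewer cells of a type and less RNA per cell cannot be told apart.

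**Figure D3:**
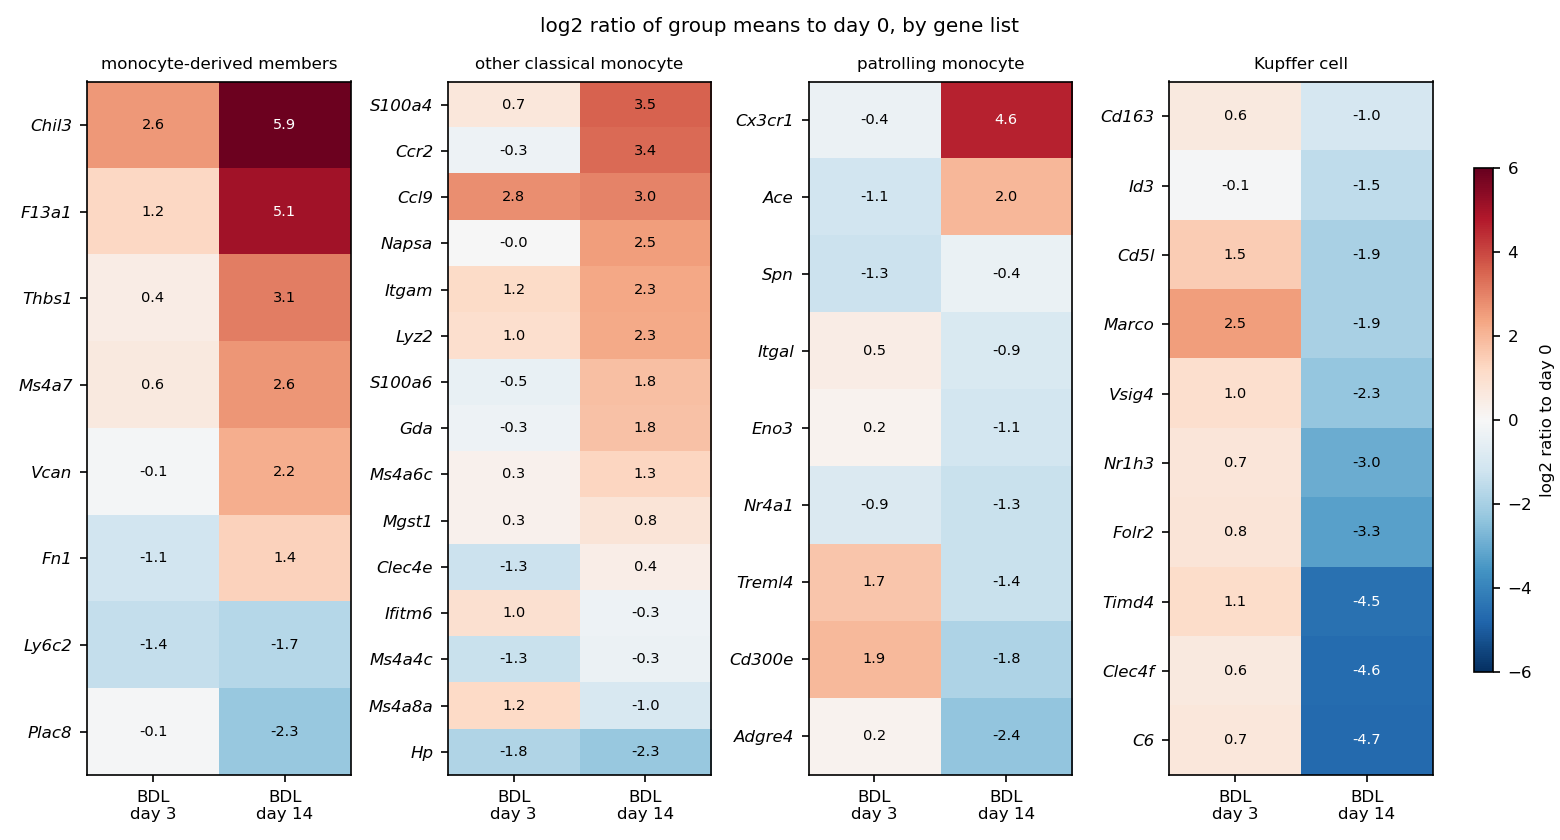
Log2 ratio of group means to day 0 at BDL day 3 and BDL day 14 (columns; color scale from -6 to 6) for the 8 genes and for the other classical monocyte, patrolling monocyte and Kupffer cell genes. The BDL day 14 column is red for 6 of the 8 genes and for 10 genes of the classical list past 1.5-fold, and blue for all 10 Kupffer cell genes.

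Signals that recruit and sustain monocytes were measured from 18 genes kept. At BDL day 3, 6 were higher and 4 lower than day 0 by over 1.5-fold, beside 19.2% and 29.2% of all genes kept. By BDL day 14, 8 were higher and 3 lower, beside 21.2% and 28.8%. The receptors *Ccr1* (11.3, 18.6 and 196) and *Cx3cr1* and the integrin chain *Itgb2* (168, 445 and 369) were among those higher at BDL day 14, as was *Csf2rb* (52.4, 119 and 96.5), a chain of the receptor for GM-CSF. *Itgal* and *Cx3cl1*, encoding fractalkine (2.45, 4.90 and 0.541), were lower. *Ccl2*, the ligand of CCR2, had means of 13.7, 10.0 and 17.2 and passed 1.5-fold in neither comparison with day 0.

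*Chil3* is also known as a gene of alternatively activated macrophages, so 9 others of that state were read beside it. At BDL day 3, 3 were higher and 3 lower by over 1.5-fold, beside 19.2% and 29.2% of all genes kept. By BDL day 14, 4 were higher and 1 was lower, beside 21.2% and 28.8%. *Il4ra*, a receptor chain for interleukin 4, had means of 66.4, 124 and 142, and *Mgl2* of 6.33, 0.899 and 26.5. For *Mgl2* the highest library held 75.5% of the BDL day 14 sum, and the others averaged 8.67. *Retnla*, often measured together with *Chil3*, was the lower one: its means were 12.6, 1.61 and 0.131, the last at the floor, which was 0.244 for BDL day 14. *Arg1*, the arginase of this state, had 116, 69.8 and 157. *Ccl17*, a chemokine, was higher at both times (1.36, 3.68 and 11.3), with 80.8% of its BDL day 14 sum in 1 library.

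Markers of other cells that can hold some of the 8 transcripts moved with the groups. Of 12 neutrophil genes kept, none was higher and 7 were lower by over 1.5-fold at BDL day 3, and 1 was higher and 10 were lower at BDL day 14, with a summed level over 13 of 612, 306 and 197. *S100a9* had means of 306, 139 and 80.9, and *Camp*, *Elane* and *Ly6g* were at the floor at BDL day 14. Of 6 dendritic cell genes, 3 were higher and 3 lower at BDL day 14, and *Siglech*, of plasmacytoid cells, had means of 6.65, 4.00 and 0.424. Of 5 large peritoneal macrophage genes kept, 1 was higher and 4 were lower at BDL day 14, and *Gata6*, the defining factor of that type, had 5.65, 0.196 and 0.437, with BDL day 3 at the floor. All 11 neutrophil genes kept other than *Mmp8* (8.86, 5.78 and 16.9), *Siglech* and the lymphocyte genes *Ms4a1* and *Ms4a4b* were highest at day 0, and their part in the levels of *Ly6c2* and *Plac8* was not tested.

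The sorted cells were labelled as *Prom1*-expressing progenitors and their progeny, and the markers of that identity are set here beside those of macrophages, summed without regard to length. The summed level of 10 progenitor and cholangiocyte genes was 84.3, 43.3 and 49.6 over the 3 groups in order, against 11043, 23654 and 1693 for 10 Kupffer cell genes. *Prom1* itself had means of 6.66, 0.956 and 1.76. Sinusoidal endothelial genes summed to 1208, 640 and 1058. Per the study, day 0 held more females than males and each BDL group more males than females, and the part of sex in these results was not tested; *Xist* had means of 143, 40.2 and 28.3 and *Ddx3y* of 7.73, 17.1 and 19.1. Depth per library is unknown, and counting error cannot be given.

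**Figure D4:**
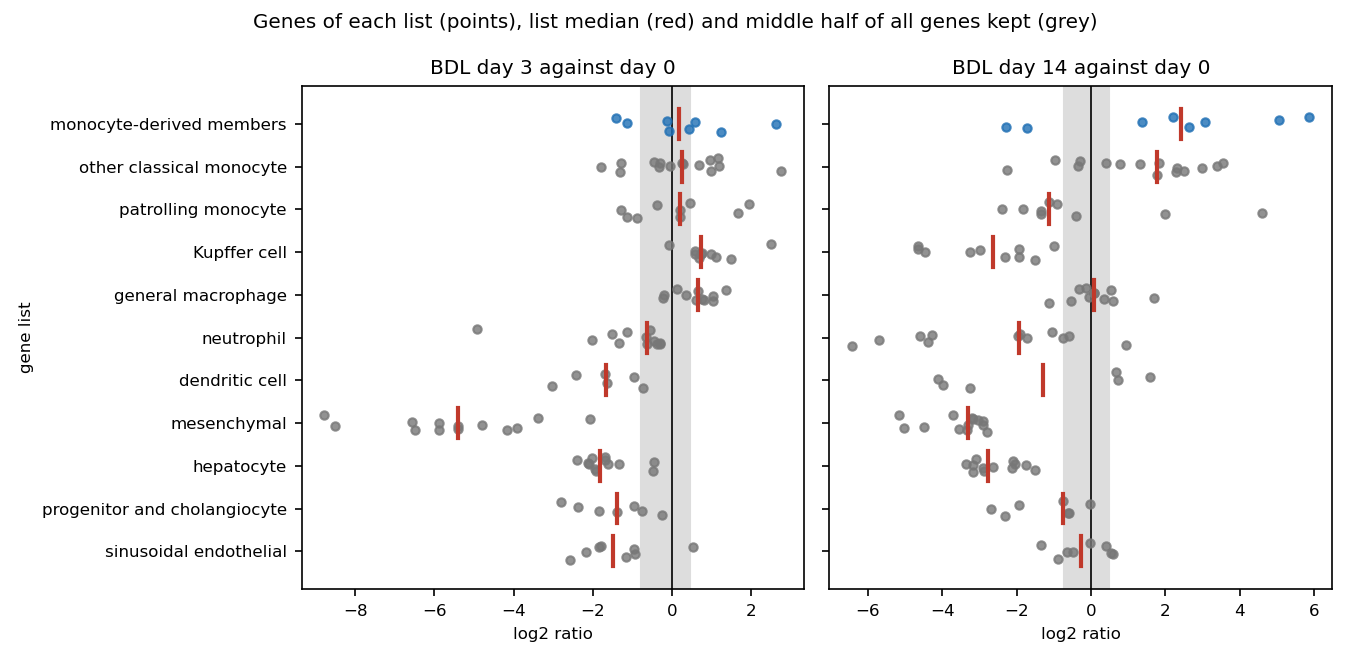
Log2 ratio of group means to day 0 for each gene (points) of 11 lists at BDL day 3 and BDL day 14, with the list median in red and the span from the 25th to the 75th percentile of all genes kept in grey. The 8 genes (blue) have a median of 0.18 at BDL day 3 and 2.42 at BDL day 14, while the medians of Kupffer cell genes are 0.75 and -2.64.

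Genes nearest the median course of the 8 were sought over the 3 group means. The distance was taken from the members' median log2 ratios to day 0 at both times. Of 12883 other genes kept, 30 lay within a distance of 0.5. Among the members themselves, only *Vcan* and *Ms4a7* lay within it, so the median course is not that of most of the 8. The 10 nearest were *Gm21596*, *Trip13*, *Gas7*, *Nek6*, *Id4*, *Napsa*, *Sirpb1a*, *Gm2223*, *Cd276* and *Tpcn1*, at distances from 0.0345 to 0.275. The nearest of these, *Gm21596* and *Trip13*, had day 0 means of 0.466 and 0.436, under the day 0 floor of 0.512, so their ratios and places in the order rest on values at the floor. *Gas7* had means of 7.57, 8.28 and 39.7, *Nek6* of 10.3, 11.1 and 49.3, and *Napsa*, also of the classical monocyte list, of 12.3, 12.0 and 69.3. *Gm21596* and *Gm2223* are annotated as processed pseudogenes and had means of 3.39 or less in every group.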

How the data were processed

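Messenger RNA of sorted GFP(+) cells was measured by RNA-seq in 3 groups (day 0, BDL day 3 and BDL day 14). Per the labels and the methods of the study, libraries were made with a TruSeq mRNA kit and sequenced on a NextSeq; strand is not given in the sources used here. Reads were trimmed, aligned to mm10 with STAR and counted on GENCODE M18 genes in Partek Flow, and counts were normalized by the upper quartile method. The submitters' processing notes name STAR 2.6.1d, and the methods name another version.

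The deposited table holds signal values made by the authors from normalized counts: the least squares mean of each group, and the total, highest value, geometric mean and arithmetic mean over libraries. It has 0 columns of values per library, so total counts per library are unknown. The 21 columns of the authors' 3 comparisons (p-value, FDR, ratio, log2 ratio, fold change and limits) were not used.

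The members and gene lists were chosen with earlier results of these data known. The filter kept genes with 10 or more normalized counts in all. A gene counted as higher or lower where the ratio of group means passed 1.5, with no pseudocount and no test. With group sizes of 3, 3 and 4, the weighted group means matched the arithmetic mean over libraries. Among genes with a mean of 10 or more, 99 of 100 deviated by at most 0.51%. The next sizes that fit deviated by 2.42%. The same libraries gave the within-group spread and the bounds described with the results. The paper gives the libraries of each group by the sex of the mice, so each is taken as 1 mouse. Group means at or under 4 times the lowest mean of the group were read as the floor. Exon lengths were taken from GENCODE M21 (GRCm38), in which 99.9% of the symbols found had the coordinates of the table. Of the gene lists, 2 genes are not reported here and were left out of the counts. From each list the genes named are mostly those past 1.5-fold with the highest mean over libraries, and defining markers. *Ccr2*, *Ccl2*, *F13b*, *Gp9*, *Gp1bb*, *Treml1* and *Mmp8* were named beyond that rule, after their values were seen. *Ccl17* and *Siglech* were also named outside it. Genes of their lists past 1.5-fold with higher means over libraries, such as *Il13ra1*, *Zbtb46* and *Ccr7*, were not named. Alternatives covered the filter, the pseudocount, the fold threshold, the scaling and the highest library; bounds that cannot overlap were added after seeing the data. Scripts used Python 3.11.15, numpy 2.4.6, pandas 2.3.3, biopython 1.88 and matplotlib 3.10.9, and were tested on simulated data.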

Additional observations from a re-analysis of the deposited data

How the results depend on the processing

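No paired analysis was possible because the table gives group means and no values per library. No gene past 1.5-fold changed direction under the alternatives tried. Of the ratios within 1.5-fold, those to day 0 at BDL day 3 changed sign for *Vcan* with quantile normalization (0.97), for *Thbs1* (-0.23) and *Ms4a7* (-0.07) relative to general macrophage genes and for *Plac8* without the highest library (0.24), and *Ly6c2* at BDL day 14 against BDL day 3 was at 0.35 relative to general macrophage genes. Of the counts and medians over the 8 genes under the alternatives, 75 stayed within 1.5 times of the count given or within the median within-group SD (0.62) of the median given, and 15 moved further. Of the log2 ratios of single genes, 177 stayed within 1 SD of their own gene, which is a wide margin for *Ly6c2*, and 12 moved further. A filter cannot change the ratio of a single gene, nor can leaving out a library of a group that the ratio does not use. Such ratios are among the 177, so that count is no measure of stability. Without a filter the same 8 genes were kept, so those counts and medians, among the 75, could not move either. With a pseudocount of 1, *Vcan* was at 1.52 against day 0 and 1.59 against BDL day 3 at BDL day 14. Relative to the median of the general macrophage list, the count of genes past 1.5-fold at BDL day 3 was 1 higher and 4 lower (*F13a1*, at 0.58, was no longer past it), and the median log2 ratio was -0.47 at BDL day 3 against day 0 and 3.07 at BDL day 14 against BDL day 3. Quantile normalization of the group means gave 4 higher genes at BDL day 3, with *Vcan* and *Thbs1* (0.59) added, and a median of 0.56 there. Shares over all genes were not taken under the alternative scalings or without the highest library. Counts under these alternatives are therefore not read as a result about the 8 genes. A threshold of 4-fold left 1 higher and 0 lower genes at BDL day 3, and 1 lower gene at BDL day 14 against day 0. Without the highest library of each gene, the lower genes were 1 at BDL day 3 and 1 at BDL day 14 against day 0, where *Ly6c2* was lost. Counting only groups that cannot overlap, an alternative chosen after seeing the data, left 1 higher and 0 lower genes at BDL day 3, 3 higher and 1 lower at BDL day 14 against day 0, and 2 higher at BDL day 14 against BDL day 3. Median-ratio scaling moved no group by more than 0.031 on the log2 scale, but gave 3 higher genes at BDL day 3, with *Ms4a7* (0.60) added. Depth per library is unknown, and the SE rests on an equal within-group spread that could not be checked.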
